A study of Mus musculus with 13 samples.

Results

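Vasoactive peptide systems were followed in mouse glomeruli through 10 genes chosen by name, namely *Edn1*, *Ednra*, *Ednrb*, *Ece1*, *Adm*, *Calcrl*, *Ramp2*, *Agtr1a*, *Ace* and *Npr1*. All 10 were present among the 35967 gene symbols of the expression table, and all 10 were among the 14322 genes expressed highly enough to be tested. The glomeruli came from wildtype Balb/c mice that had received 2 mg of rabbit IgG by intraperitoneal injection. Control mice (n = 5) received preimmune rabbit IgG, and mice with experimental membranous nephropathy (MN) received rabbit IgG against THSD7A, a protein of the podocyte foot process, and were killed at day 1 (n = 4) or day 5 (n = 4). Each library came from 1 mouse. Control mice of both days formed a single group, so time after injection of control IgG could not be separated. The study's methods state that the MN model used male mice only. They give an age of 14 to 15 weeks for the induction of MN in gene-deleted lines and their wildtype littermates. No separate age is stated for the sequenced mice. The model transfers a foreign antibody into mice of 1 strain, so mice of all 3 groups had received rabbit IgG, and the disease was not started by an autoimmune response of the mouse.

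The genes belong to the endothelin, adrenomedullin, renin-angiotensin and natriuretic peptide systems. Endothelin-1, encoded by *Edn1* and released from its precursor by the protease that *Ece1* encodes, constricts vessels mainly through the ETA receptor (*Ednra*), whereas the ETB receptor (*Ednrb*) on endothelium promotes dilation and clears the peptide. Adrenomedullin (*Adm*) is a dilator that acts through the calcitonin receptor-like receptor (*Calcrl*), which reaches the cell surface and gains its ligand preference only together with a receptor activity-modifying protein such as RAMP2 (*Ramp2*) or RAMP3 (*Ramp3*). Angiotensin-converting enzyme (*Ace*) makes angiotensin II, which constricts the efferent arteriole and mesangium through the AT1 receptor (*Agtr1a*). Natriuretic peptides raise cGMP through the guanylyl cyclase receptor that *Npr1* encodes and oppose this constriction. In the glomerulus these systems set blood flow, filtration pressure and mesangial tone, and podocytes carry several of their receptors.

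At day 5 of MN, transcripts of the dilator peptide adrenomedullin, of its receptor *Calcrl* and of the endothelin receptor *Ednrb* rose, by 2.06-fold, 1.42-fold and 1.67-fold. Each of these calls was lost when the level of endothelial marker genes entered the fit. The log2 fold changes of *Adm*, *Calcrl* and *Ednrb* were then 1.04, 0.42 and 0.58, against 1.04, 0.50 and 0.74 without it. With this covariate, calls in the whole table fell from 460 to 212. These markers were higher in sign at day 5, so the covariate and the group cannot be fully told apart. The calls of *Adm* and *Calcrl* were also lost in some fits that left out a single library. *Npr1* mRNA was 0.725 times the control level at day 5 with a low adjusted p, short of the fold required for a call. *Edn1*, *Ednra*, *Ece1*, *Ramp2*, *Agtr1a* and *Ace* did not pass the test on either day. None of the 10 genes was called at day 1.

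The promoters of the 4 genes whose day 5 difference passed the adjusted p threshold are shown so that the transcripts can be related to their start sites. They come from RefSeq (build GRCm38.p6, which differs from the GRCm39 build of the expression data), and each runs 5′ to 3′ from 250 bases before to 50 bases after the start of transcription. Capitals mark matches on either strand to GGGCGG (the GC box) and GCGTG (1 core of the hypoxia response element), which read CCGCCC and CACGC where the match lies on the opposite strand.
Adm, chr7:110627407-110627706, plus strand: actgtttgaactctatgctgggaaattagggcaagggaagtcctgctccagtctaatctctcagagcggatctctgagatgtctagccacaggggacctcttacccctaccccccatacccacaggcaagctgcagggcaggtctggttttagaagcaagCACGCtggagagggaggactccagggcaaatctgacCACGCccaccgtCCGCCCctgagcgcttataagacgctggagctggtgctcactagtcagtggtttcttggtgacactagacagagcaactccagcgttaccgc
Ednrb, chr14:103843652-103843951, minus strand: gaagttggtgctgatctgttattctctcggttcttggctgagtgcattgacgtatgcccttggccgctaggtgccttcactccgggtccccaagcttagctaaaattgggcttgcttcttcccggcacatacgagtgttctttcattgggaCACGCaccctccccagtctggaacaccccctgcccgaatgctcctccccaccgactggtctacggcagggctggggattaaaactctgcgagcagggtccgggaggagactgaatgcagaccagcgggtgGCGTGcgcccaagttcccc
Calcrl, chr2:84425217-84425516, minus strand: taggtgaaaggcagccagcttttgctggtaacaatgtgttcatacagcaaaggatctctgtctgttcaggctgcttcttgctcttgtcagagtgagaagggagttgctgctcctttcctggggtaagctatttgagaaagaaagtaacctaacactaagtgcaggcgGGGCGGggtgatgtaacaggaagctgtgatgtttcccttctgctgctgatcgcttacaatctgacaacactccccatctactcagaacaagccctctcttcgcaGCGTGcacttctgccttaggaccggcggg
Npr1, chr3:90465817-90466116, minus strand: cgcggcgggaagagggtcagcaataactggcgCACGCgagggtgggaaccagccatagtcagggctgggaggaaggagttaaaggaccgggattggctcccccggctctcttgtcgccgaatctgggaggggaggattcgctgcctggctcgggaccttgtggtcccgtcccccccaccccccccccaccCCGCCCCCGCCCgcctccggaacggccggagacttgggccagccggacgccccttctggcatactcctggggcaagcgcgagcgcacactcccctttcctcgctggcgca
Both strands were also searched for the letters TATAAA (the TATA box), TGANTCA (the AP-1 site) and ACGTG (the other hypoxia response core). These 4 windows held no match to those letters. Variants of them, such as the tataag in the *Adm* window, were not searched. The *Adm* window held GCGTG at positions -90 and -54 and GGGCGG at -42 from the start, *Ednrb* held GCGTG at -99 and 32, *Calcrl* held GGGCGG at -83 and GCGTG at 22, and *Npr1* held GCGTG at -218 and adjacent GGGCGG matches at -60 and -54. Among 32851 mouse promoters of the same length, 32.4% held the GCGTG core, 35.7% held the GC box, 19.6% held the ACGTG core, 13.6% held the TATA box and 7.81% held the AP-1 site. These letters are therefore common, and a match describes the window only. A promoter was matched for 8 of the 10 genes, and none was matched for *Ramp2* and *Agtr1a*.

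Values are TPM, a transcript abundance rescaled to a fixed total per library, and they already account for transcript length and thus allow genes to be compared within a library. In control glomeruli the mean TPM was highest for *Agtr1a* (360.3), *Ramp2* (356) and *Ece1* (330.2), and the ranges of neighbours in this order overlapped. Within libraries, *Agtr1a* was above *Ramp2* in 1 of 5 control mice, so the order of these means is not that of most mice. *Npr1* (230.2 TPM) followed, with every control library below its own *Ece1*, and then *Calcrl* (191 TPM) and *Ednrb* (123 TPM), each without overlap with the gene before it. *Adm* (86.7 TPM) overlapped with *Ednrb* and was the lower of the pair in 4 of 5 control libraries. *Ednra* (20.0 TPM), *Ace* (19.0 TPM) and *Edn1* (15.8 TPM) lay lowest and overlapped from neighbour to neighbour. By control mean, the genes ranked between 384 (*Agtr1a*) and 8421 (*Edn1*) in the whole table. The plot of TPM by mouse shows these levels beside the MN groups.

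**Figure D1:**
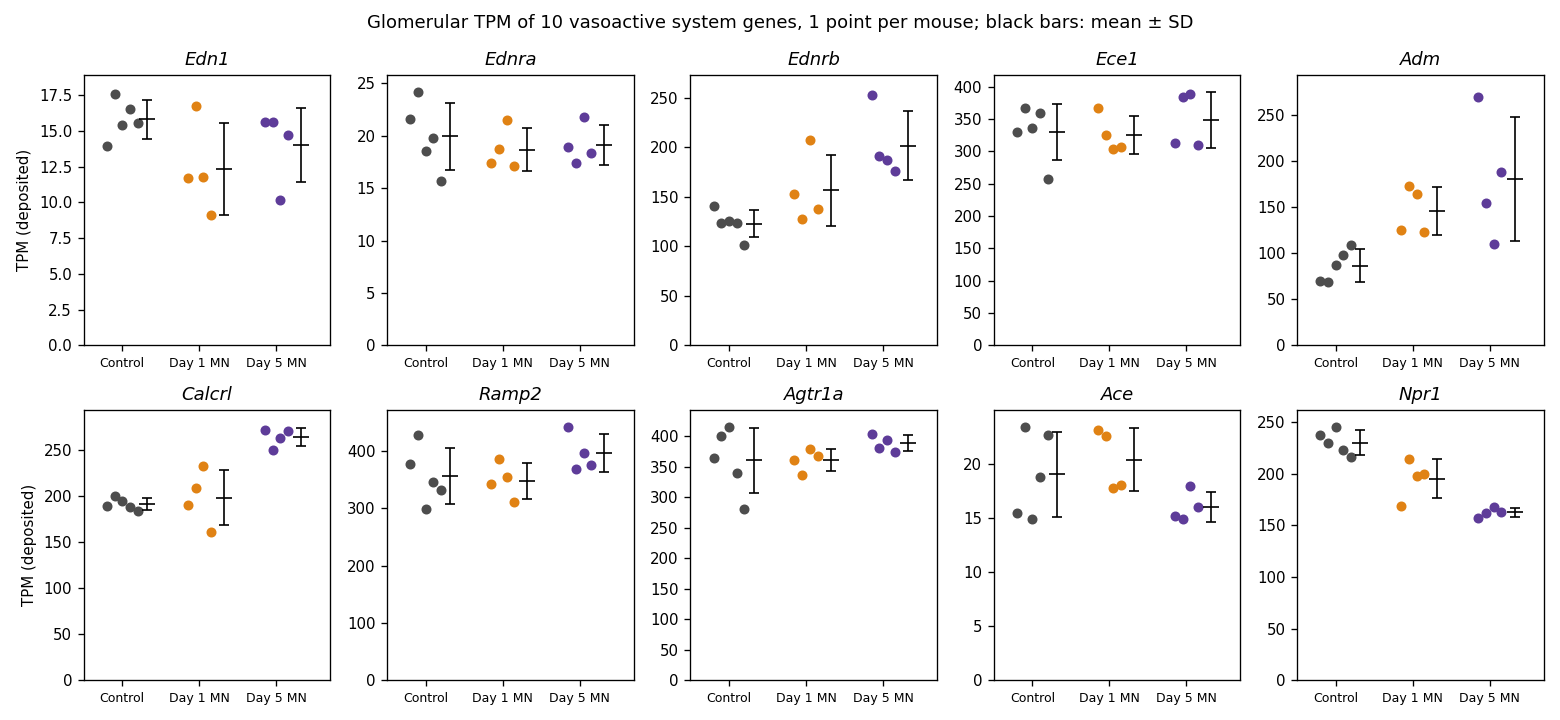
TPM of each of the 10 genes (vertical axes, linear from 0) in control, day 1 MN and day 5 MN glomeruli, with 1 point per mouse and black bars for the mean ± SD. The day 5 points of *Ednrb*, *Adm* and *Calcrl* lie above all control points, those of *Npr1* lie below all control points, and the groups overlap in the other 6 genes.

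Comparisons used limma on log2(scaled TPM + 0.5), with all 3 groups in 1 fit and Benjamini-Hochberg adjustment over the 14322 genes, and a call needed both an adjusted p under 0.05 and a log2 fold change beyond 0.5 in either direction. On this scale the change of low genes is understated. The background was 0.0908% of genes called at day 1 against control, 3.21% at day 5 against control (2.42% higher) and 1.81% at day 5 against day 1. Of the 10 vasoactive genes, 0, 3 (all higher) and 0 were called in these comparisons. With the adjusted p alone, 4 of the 10 passed at day 5 against control (6.12% of all genes) and 1, *Calcrl*, at day 5 against day 1 (2.38% of all genes). At an unadjusted p under 0.05, 3 of the 10 stood out at day 1 (12.6% of all genes), 4 at day 5 (20.1%) and 4 at day 5 against day 1 (15.5%). Groups did not overlap in TPM for 2 of the 10 genes at day 1 (4.22% of all genes), 4 at day 5 (10.8%) and 2 between the days (11.0%). The median log2 fold change of the 10 genes was 0.05 at day 1 and 0.14 at day 5, against about 0.00 for all tested genes. With 10 genes, 1 gene is a large share, and the genes are not independent of each other. Both MN days were compared with the same 5 control libraries.

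**Figure D2:**
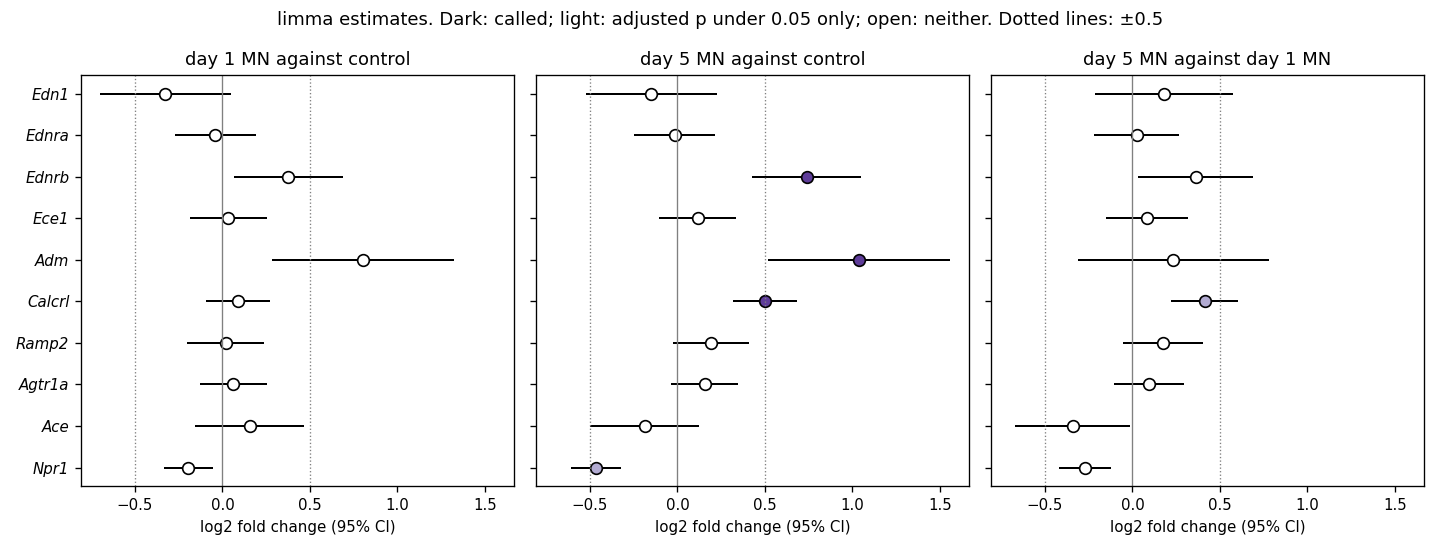
limma log2 fold changes of the 10 genes (horizontal axes) with their 95% confidence intervals in the 3 comparisons, where dark points were called, light points passed the adjusted p alone, and dotted lines mark 0.5 in either direction. *Adm*, *Ednrb* and *Calcrl* are the called genes at day 5, and *Npr1* at -0.46 stops short of the line.

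Features of the libraries touch these results. The isolates held all glomerular cell types in bulk, so fewer cells of a type and less RNA per cell cannot be told apart. All 8 podocyte, 8 endothelial and 8 mesangial markers were present in every library. Control replicate 5 stood apart, with the lowest summed TPM of mesangial markers (2393, against 3184 to 3540 in the other control libraries) and of endothelial markers (4825, against 5325 to 6099), and the highest control sum of tubule markers (1016, against 400.3 to 786). It was also the lowest control library for *Ednra*, *Ednrb*, *Ece1*, *Calcrl*, *Agtr1a* and *Npr1* and the highest for *Adm*. Without it the same 3 genes were called at day 5, with log2 fold changes of 1.14 for *Adm*, 0.68 for *Ednrb* and 0.50 for *Calcrl*. At day 1, 218 genes of the whole table were called without it in place of 13, and 0 of the 10 were among them.

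At day 1, summed tubule markers ranged from 780 to 1359 TPM, against 400.3 to 1016 in control and 568 to 725 at day 5. All 8 tubule markers were higher in sign at day 1 (median log2 fold change 0.73), and 0 were called. At day 5, all 8 endothelial markers were higher in sign than in control (median log2 fold change 0.20), and 0 were called. *Emcn* among them passed the adjusted p alone (0.29, adjusted p = 0.0127). The endothelial marker sum ranged from 5726 to 6105 TPM at day 5, against 4825 to 6099 in control. Of the 8 mesangial markers, 6 were higher and 2 lower in sign at day 5 (median log2 fold change 0.11), and 0 were called. *Serpine2* among them passed the adjusted p alone (0.42, adjusted p = 0.0113). Podocyte marker sums at day 5 (9139 to 9819 TPM) lay within the control range (7578 to 10222 TPM). The lower end of that range was control replicate 2 alone, and the other control libraries had 9362 to 10222 TPM. Day 5 replicate 1 (9139 TPM) lay below those. Day 1 mice had podocyte marker sums of 8385, 8591, 8628 and 10261 TPM. Of the 8 podocyte markers 1 was called at day 5, the cell cycle inhibitor *Cdkn1c* (log2 fold change 0.72). *Synpo* was lower and passed the adjusted p alone (-0.46, adjusted p = 0.00197). Leukocyte marker sums were low in control (27.1 to 47.3 TPM) and at day 5 (26.3 to 50.6 TPM), while all 6 tested leukocyte markers were higher in sign at day 5 (median log2 fold change 0.31) and 0 were called. All 5 smooth muscle and juxtaglomerular markers were also higher in sign at day 5 (median log2 fold change 0.37), 0 were called, and their sum ranged from 536 to 1067 TPM, against 363 to 671 in control. The part of the leukocyte and smooth muscle markers in the results was not tested.

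Adrenomedullin showed the widest change of the 10 genes. *Adm* (chromosome 7, 110226858 to 110229027, GRCm39) was measured at 69.5, 69.1, 86.9, 98.7 and 109 TPM in control replicates 1 to 5, which gave 86.7 ± 17.8 (SD, n = 5). At day 1 the 4 mice had 125, 173, 165 and 123 TPM (146 ± 26.2, n = 4), and at day 5 they had 270.03, 155, 109.9 and 188 TPM (181 ± 67.6, n = 4). In deposited TPM every MN mouse lay above every control mouse, but day 5 replicate 3 exceeded the highest control narrowly and overlapped with it after scaling between libraries, and day 5 replicate 1 was the highest library. The log2 fold change at day 5 was 1.04 (SE 0.24, 95% CI 0.53 to 1.55, adjusted p = 0.0192). At day 1 it was 0.81 (SE 0.24, 95% CI 0.29 to 1.32), and it did not pass the test (adjusted p = 0.244). The difference between the days was 0.23 (95% CI -0.31 to 0.78, adjusted p = 0.729), so the data allow either direction. The day 5 call was lost without day 5 replicate 1 (log2 fold change 0.80, adjusted p = 0.0567) and without day 5 replicate 4 (1.00, adjusted p = 0.0539).

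The receptor subunit gene *Calcrl* (chromosome 2, 84160957 to 84255755) had little spread in control and day 5 mice. Control mice had 189, 200.3, 195, 188 and 184 TPM (191 ± 6.38, n = 5), and day 5 mice had 272, 250.1, 264 and 271 TPM (264 ± 10.2, n = 4). Day 1 mice were more scattered, at 191, 209, 233 and 161 TPM (199 ± 30.3, n = 4). All day 5 libraries lay above all others, and day 1 libraries lay on both sides of the controls. The log2 fold change was 0.09 at day 1 (SE 0.08, 95% CI -0.09 to 0.26, adjusted p = 0.691) and 0.50 at day 5 (SE 0.08, 95% CI 0.33 to 0.68, adjusted p = 0.00215). From day 1 to day 5 it was 0.41 (SE 0.09, 95% CI 0.23 to 0.60, adjusted p = 0.0211), which tests the difference between the days directly and passed the adjusted p but not the fold required for a call. The day 5 value sat just above the fold threshold. Leaving out control replicate 1 or 4 or day 5 replicate 1 or 4 moved it to 0.496, 0.493, 0.468 and 0.498, each under the threshold, with adjusted p between 0.00698 and 0.0117.

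*Ramp2* (chromosome 11, 101136358 to 101150419), the partner that makes CALCRL an adrenomedullin receptor, did not pass the test. It was measured at 299 to 427 TPM in control (356 ± 48.7, n = 5), 311 to 386 at day 1 (348 ± 31.3, n = 4) and 369 to 443 at day 5 (396 ± 33.2, n = 4), and the groups overlapped. Its log2 fold change at day 5 was 0.19 (95% CI -0.02 to 0.41, adjusted p = 0.301) and at day 1 0.02 (95% CI -0.19 to 0.23, adjusted p = 0.965). The alternative partner *Ramp3*, a gene of the wider adrenomedullin list, was called at day 5. Control mice had 113, 105, 123, 105 and 106 TPM of *Ramp3*, day 1 mice had 119, 179, 117 and 124, and day 5 mice had 199, 160.4, 138 and 136. Day 5 libraries lay above all control libraries, but their spread was wide. The log2 fold change was 0.54 (SE 0.15, adjusted p = 0.0474), and the call held in 4 of 13 fits that left out 1 library, with adjusted p from 0.0165 to 0.142. *Ramp1*, which directs CALCRL to calcitonin gene-related peptide, had a mean of 1.57 TPM in control.

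Among other ligands and decoys of this system in control glomeruli, *Calca* (161 TPM) was abundant, whereas *Adm2* (0.086 TPM) and *Calcb* (1.08 TPM) were low. *Gpr182* (34.9 TPM) and *Ackr3* (54.1 TPM), receptors reported to take up adrenomedullin or chemokines, had log2 fold changes of 0.06 and 0.17 at day 5 and did not pass the test. Of 12 further genes of the adrenomedullin list, 10 were tested, and at day 5 *Ramp3* was called higher and 9 were not called. The median log2 fold change of those 10 was 0.14 at day 5 and 0.07 at day 1.

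Among endothelin genes, *Ednrb* (chromosome 14, 104052053 to 104081900), which encodes the ETB receptor, was the one called. Control mice had 140.3, 123, 126, 124 and 101 TPM (123 ± 13.97, n = 5), day 1 mice had 153, 128, 208 and 138 TPM (157 ± 35.7, n = 4), and day 5 mice had 253, 191, 187 and 176 TPM (202 ± 34.6, n = 4). All day 5 libraries lay above all control libraries, and day 1 libraries overlapped with both. At day 5 the log2 fold change was 0.74 (SE 0.14, 95% CI 0.43 to 1.04, adjusted p = 0.00691). At day 1 it was 0.38 (SE 0.14, 95% CI 0.07 to 0.68, adjusted p = 0.323), and from day 1 to day 5 it was 0.36 (SE 0.15, 95% CI 0.04 to 0.69, adjusted p = 0.259), and neither passed the test. The day 5 call held in each of 13 fits without 1 of the libraries, where the value ranged from 0.61 to 0.81, and was lost with the endothelial marker level as a covariate (0.58, adjusted p = 0.172).

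The ETA receptor gene *Ednra* (chromosome 8, 78386590 to 78451552) was measured at 15.7 to 24.2 TPM in control (20.0 ± 3.18, n = 5), 17.1 to 21.5 at day 1 (18.7 ± 2.03, n = 4) and 17.4 to 21.8 at day 5 (19.1 ± 1.91, n = 4). The day 5 log2 fold change was -0.02, with a 95% CI of -0.24 to 0.21 (adjusted p = 0.96). The ligand gene *Edn1* (chromosome 13, 42446301 to 42461466) was measured at 13.9 to 17.6 TPM in control (15.8 ± 1.36, n = 5), at 11.7, 16.8, 11.8 and 9.11 TPM at day 1 (12.3 ± 3.20, n = 4) and at 15.6, 15.6, 10.2 and 14.7 TPM at day 5 (14.01 ± 2.60, n = 4). Of the 4 day 1 mice, 3 lay below all controls and 1 lay within them. The log2 fold change of *Edn1* was -0.33 at day 1 (95% CI -0.70 to 0.04, adjusted p = 0.447) and -0.15 at day 5 (95% CI -0.52 to 0.22, adjusted p = 0.705). The protease gene *Ece1* (chromosome 4, 137589530 to 137692542) was measured at 257 to 367.5 TPM in control (330.2 ± 43.7, n = 5), 303 to 368 at day 1 (326 ± 29.6, n = 4) and 310.2 to 388 at day 5 (349 ± 43.1, n = 4), with log2 fold changes of 0.03 (adjusted p = 0.932) and 0.12 (95% CI -0.10 to 0.33, adjusted p = 0.587).

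The other endothelin genes and *Ece2*, a relative of *Ece1*, were low. Control means were 0.757 TPM for *Edn2*, 0.234 for *Edn3* and 0.585 for *Ece2*, and *Kel* was listed at 0 in every library. *Mme*, which encodes the peptide-degrading protease neprilysin, had 58.2 TPM in control. Of the 12 other genes on the endothelin list, 7 were tested and 0 were called on either day. *Arrb1*, which encodes beta-arrestin 1, an adaptor that uncouples activated receptors, was lower in every MN mouse of day 1 (156 to 187 TPM) and day 5 (154 to 189 TPM) than in any control mouse (199.7 to 218 TPM). Its log2 fold change was -0.29 on both days, with an adjusted p of 0.178 at day 1 and 0.0271 at day 5, and it was not called on either day.

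Ratios between partners were taken within each library, and they are given as descriptions without a test. The ratio of *Ednrb* to *Ednra* TPM ranged from 5.11 to 6.79 in control (6.22 ± 0.649, n = 5), from 6.83 to 9.67 at day 1 (8.35 ± 1.21, n = 4) and from 8.56 to 13.4 at day 5 (10.6 ± 2.09, n = 4). Libraries of both MN days lay above all control libraries in this ratio, and the days overlapped. The ratio of *Ramp2* to *Calcrl* TPM ranged from 1.54 to 2.13 in control, from 1.52 to 1.93 at day 1 and from 1.38 to 1.63 at day 5, with overlap between all groups. The ratio of *Ace* to *Agtr1a* TPM ranged from 0.0359 to 0.0808 in control, from 0.0468 to 0.0671 at day 1 and from 0.0376 to 0.0457 at day 5, where both MN days overlapped with control but not with each other. Summed tubule markers likewise did not overlap between the MN days (780 to 1359 TPM at day 1, 568 to 725 at day 5). Their part in this ratio was not tested.

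**Figure D3:**
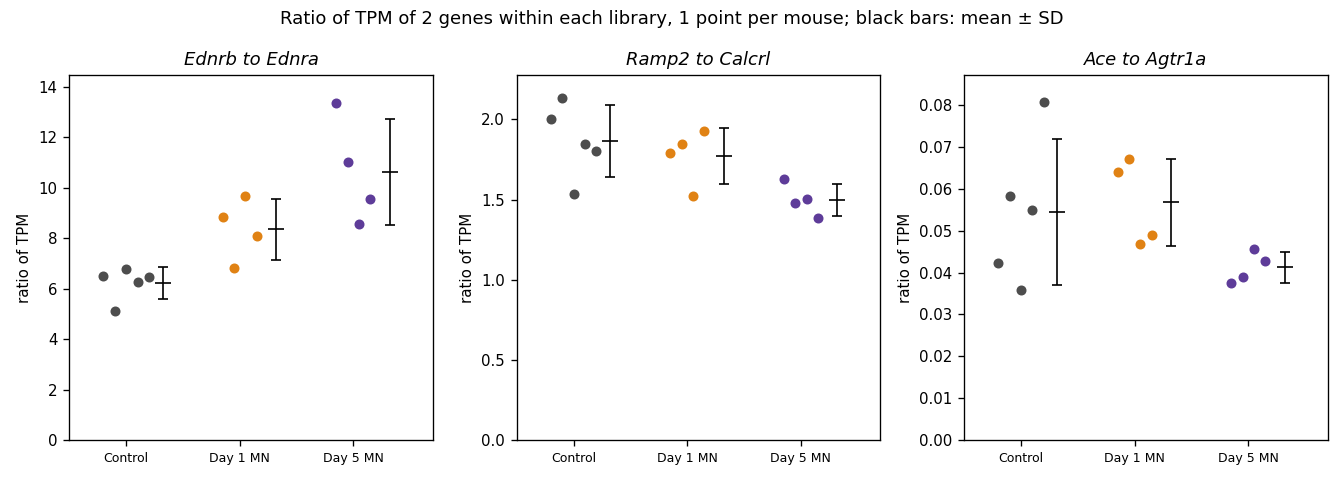
Ratio of the TPM of 2 genes in the same library (vertical axes, linear from 0) in control, day 1 MN and day 5 MN glomeruli, with 1 point per mouse and black bars for the mean ± SD. The *Ednrb* to *Ednra* ratio is above 6.79, the highest control value, in all 8 MN libraries, and the other ratios overlap with control.

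The natriuretic peptide receptor gene *Npr1* (chromosome 3, 90356458 to 90373748) had its lowest values at day 5. Control mice had 238, 229, 245, 223 and 216 TPM (230.2 ± 11.7, n = 5), day 1 mice had 169, 214, 198 and 199.7 TPM (195 ± 18.9, n = 4), and day 5 mice had 157, 162, 168 and 163 TPM (163 ± 4.18, n = 4). In deposited TPM the groups were ordered without overlap, with every day 5 library below every day 1 library and every day 1 library below every control, whereas day 1 and control overlapped after scaling between libraries. The log2 fold change at day 5 was -0.46 (SE 0.06, 95% CI -0.60 to -0.33), with the lowest adjusted p of the 10 genes (adjusted p = 0.000639), but it did not reach the fold required for a call. It was -0.19 at day 1 (SE 0.06, 95% CI -0.33 to -0.06, adjusted p = 0.263) and -0.27 from day 1 to day 5 (SE 0.07, 95% CI -0.41 to -0.13, adjusted p = 0.0521), and neither passed the test. With any 1 library left out, the day 5 value stayed between -0.48 and -0.44.

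The other natriuretic peptide receptors were also measured. *Npr2*, the receptor for C-type natriuretic peptide, had 33.9 TPM in control and a day 5 log2 fold change of -0.09 (adjusted p = 0.703), and *Npr3*, which encodes the clearance receptor, had 144 TPM and 0.12 (adjusted p = 0.557). Of the ligand genes, *Nppa* had 0.545 TPM and *Nppb* 0.029 TPM in control. The processing proteases *Corin* and *Furin* had 2.27 and 83.9 TPM. Of 16 further genes on the list of natriuretic peptide and cGMP genes, 13 were tested and 0 were called, with day 5 log2 fold changes from -0.15 to 0.15.

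In the renin-angiotensin system, *Agtr1a* (chromosome 13, 30518942 to 30566850) had the highest control mean of the 10 genes and did not pass the test. It was measured at 280.4 to 416 TPM in control (360.3 ± 53.7, n = 5), 336 to 379 at day 1 (361 ± 18.3, n = 4) and 375 to 404 at day 5 (388 ± 13.1, n = 4), and all groups overlapped. Its day 5 log2 fold change was 0.16 (95% CI -0.03 to 0.34, adjusted p = 0.346). Its near-identical paralog *Agtr1b*, with which reads could be shared, was listed at a mean of 0.237 TPM in control. *Ace* (chromosome 11, 105858469 to 105880790) was measured at 15.4, 23.4, 14.9, 18.7 and 22.7 TPM in control (19.0 ± 3.93, n = 5), at 23.1, 22.6, 17.7 and 18.0 TPM at day 1 (20.4 ± 2.88, n = 4) and at 15.2, 14.9, 17.9 and 16.0 TPM at day 5 (16.0 ± 1.38, n = 4). The log2 fold change of *Ace* was 0.15 at day 1 (adjusted p = 0.69), -0.19 at day 5 (95% CI -0.49 to 0.12, adjusted p = 0.522) and -0.34 from day 1 to day 5 (95% CI -0.66 to -0.02, adjusted p = 0.29).

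Renin, encoded by *Ren1*, had 243 ± 57.1 TPM in control (n = 5) and 344 ± 157 at day 5 (n = 4), with 203 to 557 TPM among day 5 mice. Its log2 fold change at day 5 was 0.46 (95% CI -0.10 to 1.02, adjusted p = 0.357). *Enpep*, which encodes the aminopeptidase that degrades angiotensin II, had a higher control mean than any of the 10 genes, at 564 TPM, and *Mas1* (0.775 TPM) and the precursor *Agt* (0.05 TPM) were low. Of 17 further genes of the list, 16 were in the table, 10 were tested and 0 were called on either day.

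In the 8 wider lists together, 82 of 114 genes were tested. None was called at day 1 or between the days, and 2 of the 82 were called at day 5, *Ramp3* and *Aplnr*, against 3.21% of all genes. At an unadjusted p under 0.05, 9 of the 82 stood out at day 1 (12.6% of all genes), 14 at day 5 (20.1%) and 12 between the days (15.5%), which in each comparison is a share of the lists no higher than that of all genes. *Aplnr* encodes the apelin receptor, a dilator receptor of endothelium. Control mice had 6.50, 5.37, 5.07, 6.31 and 3.41 TPM of *Aplnr*, day 1 mice 7.27, 4.94, 6.50 and 6.43, and day 5 mice 7.49, 11.4, 11.5 and 9.16. Every day 5 library lay above every other library. Its log2 fold change at day 5 was 0.88 (SE 0.17, adjusted p = 0.00783). From day 1 to day 5 it was 0.60 (adjusted p = 0.12), and *Aplnr* was not called. Of 13 fits that left out 1 library, *Aplnr* was called between the days in 1, without control replicate 5 (0.60, adjusted p = 0.0441). Over these fits the adjusted p reached 0.291. In the nitric oxide and kinin list, *Nostrin*, which encodes a protein that binds and traffics endothelial nitric oxide synthase, had 104 to 134 TPM in control and 146 to 168 at day 5 (log2 fold change 0.44, adjusted p = 0.0117). *Nos3*, which encodes that synthase, had 39.1 to 55.4 TPM in control and 53.5 to 64.0 at day 5 (log2 fold change 0.32, adjusted p = 0.0403). Both were short of the fold required for a call. The prostanoid list (15 tested) and the RGS list (9 tested), whose proteins end G protein signals, had 0 called genes on either day.

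**Figure D4:**
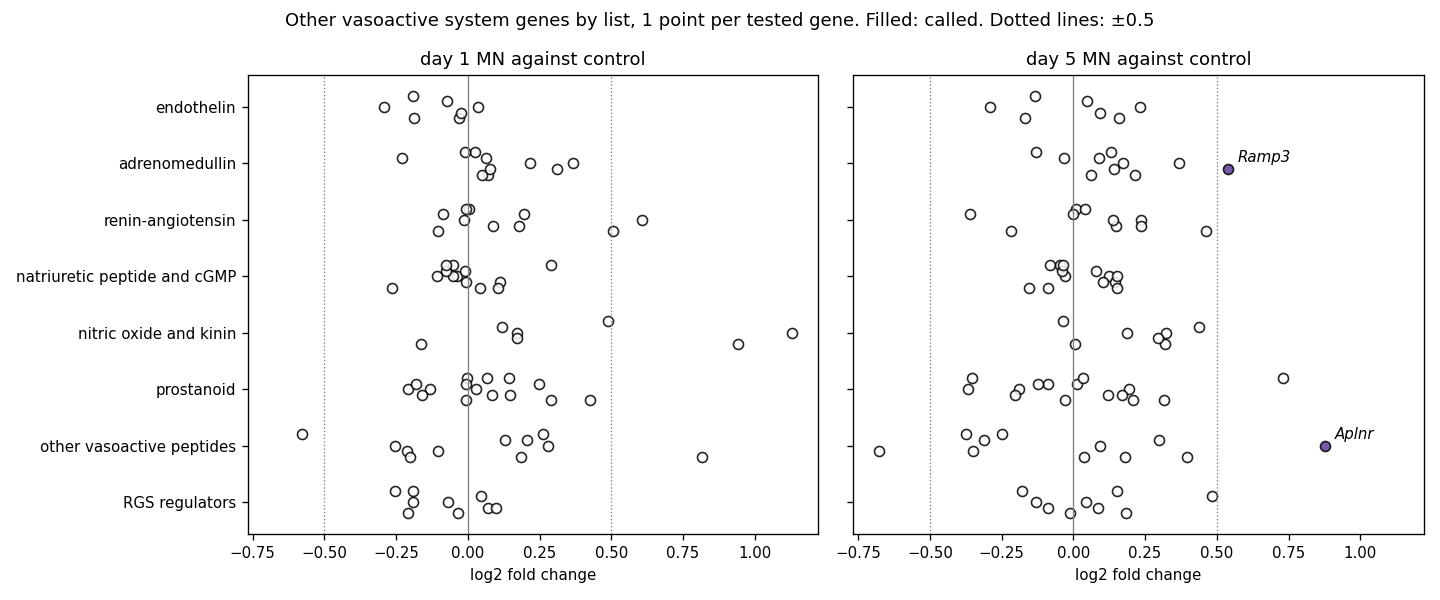
limma log2 fold changes at day 1 and day 5 against control (horizontal axes) for the tested genes of 8 wider vasoactive lists (rows), with 1 point per gene, filled points for called genes and dotted lines at 0.5 in either direction. *Ramp3* (0.54) and *Aplnr* (0.88) are the filled points, both at day 5.

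The called genes were set beside the endothelial markers, which were higher in sign at day 5. With the mean endothelial marker level of each library as a covariate, an alternative added after the data were seen, the day 5 log2 fold changes were 1.04 for *Adm* (adjusted p = 0.169), 0.58 for *Ednrb* (adjusted p = 0.172), 0.42 for *Calcrl* (adjusted p = 0.0778) and 0.30 for *Ramp3* (adjusted p = 0.491), and none of them passed. That of *Npr1* was -0.50 (adjusted p = 0.0101), and *Npr1* was then called. With the endothelial marker covariate, *Aplnr* of the wider lists also lost its day 5 call (adjusted p = 0.159). Because these markers were higher in sign at day 5, the covariate and the group cannot be fully told apart. With the tubule marker level as the covariate, *Adm* and *Ednrb* kept their calls, and *Calcrl* was 0.49 at day 5 and 0.28 between the days (adjusted p = 0.406 for the latter). The plot of log2 fold change against adjusted p by processing setting shows the day 5 fits of *Adm*, *Ednrb*, *Calcrl* and *Npr1*.

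**Figure D5:**
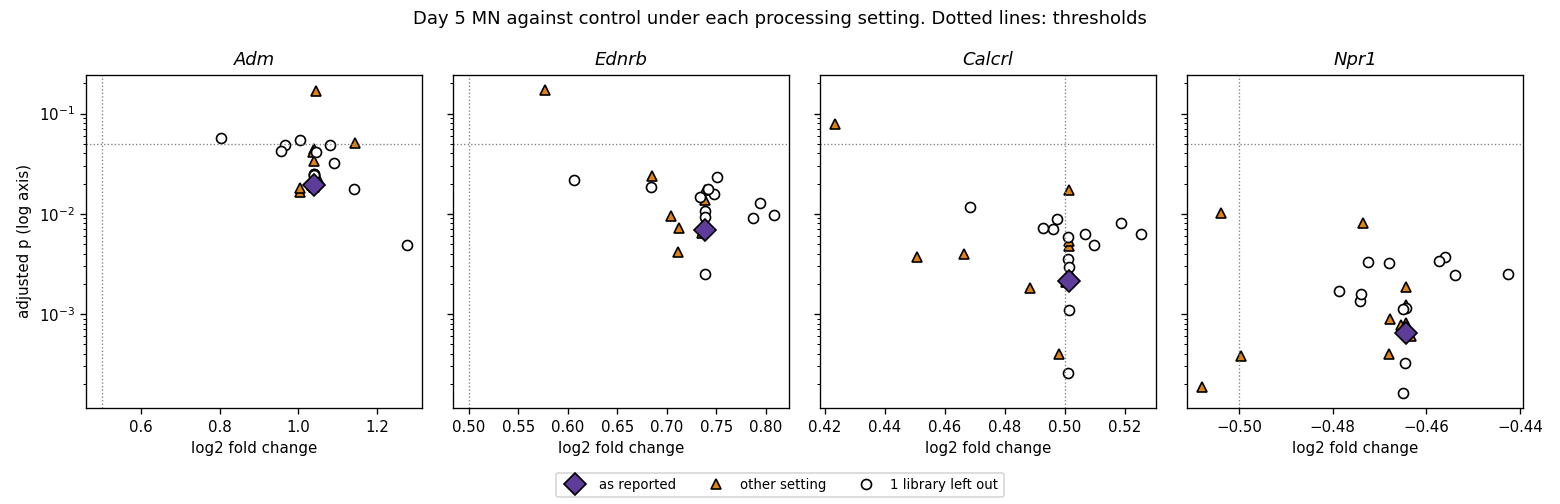
Day 5 MN against control for *Adm*, *Ednrb*, *Calcrl* and *Npr1*, with the log2 fold change (horizontal) and the adjusted p (vertical, log axis) as reported, under 12 other settings and in 13 fits that left out 1 library. Dotted lines mark the call thresholds. *Ednrb* stays beyond both lines in all 13 of these fits, *Calcrl* straddles the line at 0.5, and *Npr1* lies between -0.51 and -0.44.

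Profiles most like those of the called genes were sought by the root mean square difference of centred log2 values over the 13 libraries. For *Ednrb*, whose own SD was 0.38, the closest were *Vim* (0.15), which encodes the intermediate filament vimentin, *Tpm1* (0.16), which encodes an actin-binding tropomyosin, and *Mall* (0.16). For *Adm* (SD 0.60) they were *Kirrel2* (0.26), which encodes a relative of the slit diaphragm protein NEPH1, *Nell2* (0.26) and *Aldh1b1* (0.28), and for *Calcrl* (SD 0.25) they were *Zyx* (0.08), which encodes the focal adhesion protein zyxin, *Pdgfd* (0.10) and *Ap1s2* (0.10). These are the nearest of 14322 genes over libraries that share the group differences, and they are given as a description.

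From day 1 to day 5, the log2 fold changes of the genes not yet given were 0.18 for *Edn1*, 0.02 for *Ednra*, 0.08 for *Ece1*, 0.17 for *Ramp2* and 0.09 for *Agtr1a*. Their adjusted p lay between 0.458 (*Ramp2*) and 0.948 (*Ednra*), and all 5 genes overlapped between the days.

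Limits of the measurement apply to several of the genes. In the GENCODE annotation, 7 of the 10 genes (*Edn1*, *Ednra*, *Ece1*, *Adm*, *Calcrl*, *Ace* and *Npr1*) overlap a gene on the opposite strand, and *Ramp2*, which overlaps *Vps25*, and *Agtr1a* overlap one on the same strand. Whether the strand of reads was used in quantification is not given in the sources used here, so reads of such pairs may not be fully separated.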

How the data were processed

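Glomerular RNA of 13 mice was sequenced, with 1 library per mouse. The authors trimmed reads with Trimmomatic 0.39, checked them with FastQC 0.11.9 and quantified them with kallisto 0.46.2 against GRCm39, and they deposited TPM for 35967 gene symbols. How transcripts were summed to symbols and the read depth were not given in the sources used here, so no counting interval was attached to a value. Deposited TPM summed to between 989774 and 996064 per library.

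Each library was scaled by a median-of-ratios factor (0.955 to 1.04, from 15772 genes above 0 in all libraries), and values were taken as log2(scaled TPM + 0.5). The 14322 genes that reached a TPM of 1 in 4 or more libraries entered the tests. All 3 groups were fitted together in limma 3.58.1 (R 4.3.3) with a mean-variance trend, followed by Benjamini-Hochberg adjustment for each comparison. A call needed an adjusted p under 0.05 and a log2 fold change beyond 0.5 in either direction. The steps were tested on simulated data. The study itself tested counts with another tool, and those counts were not used here.

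The genes and lists were chosen with earlier results of these data known. All 10 genes are named, wider pathway genes are named where called or where they are ligands, receptors or processing enzymes, and for each called gene the 3 nearest profiles are named. *Arrb1*, *Nostrin* and *Nos3* and the markers *Emcn*, *Serpine2* and *Synpo* were named after their values were seen, because they passed the adjusted p alone. Some genes under this naming rule are not reported here. Coordinates come from GENCODE, and promoters from RefSeq. Groups were taken from the sample labels. Alternatives were other pseudocounts, scalings, filters, fits and covariates, and leaving out each library in turn.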

Additional observations from a re-analysis of the deposited data

Results flagged for a closer look

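Among 39 groups of values tested for a single distant library, 2 passed the critical value, and about 1 in 20 would do so by chance. *Edn1* in day 5 replicate 3 was 10.2 TPM, and the nearest day 5 library had 14.7 TPM. The log2 ratio of *Ednrb* to *Ednra* in control replicate 2 was 2.35, below the next control library at 2.65. The effect of MN on *Calcrl* differed between the days, with a log2 fold change 0.41 higher at day 5 than at day 1 (limma, adjusted p = 0.0211), and this difference did not pass the adjusted p with the tubule marker covariate (adjusted p = 0.406), with the endothelial marker covariate (adjusted p = 0.23), or when the third group was left out of the fit (adjusted p = 0.0611). It also did not pass without day 1 replicate 1 (adjusted p = 0.0608) or day 5 replicate 1 (0.0791), 2 (0.0564) or 4 (0.0638).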

How the results depend on the processing

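Of the 10 genes, 3 were called at day 5 as reported and between 1 and 4 under the 12 other settings, of which the endothelial marker covariate was added after the data were seen. *Ednrb* was called in 11 of 12 settings, *Adm* in 10, *Calcrl* in 7 and *Npr1* in 3. The setting with the adjusted p alone required no fold. Its calls of 4 of the 10 genes, *Calcrl* and *Npr1* among them, mean only that the adjusted p passed. *Calcrl* missed the fold threshold with unscaled TPM (0.47), quantile normalization (0.45), the tubule covariate (0.49) and only the compared groups in the fit (0.498), while *Npr1* passed it with quantile normalization (-0.51, adjusted p = 0.000186). Leaving out 1 library in turn gave 1 to 3 of the 10 genes called at day 5, 1 without day 5 replicate 1 or 4. *Ramp3* was called in 6 and *Aplnr* in 11 of 12 settings. The endothelial marker covariate left 1 of the 10 genes, 0 pathway genes and 212 genes in all at day 5, 135 between the days and 1 pathway gene at day 1. The adjusted p alone gave 5 pathway genes and 876 genes at day 5 and 1 of the 10 between the days. Pathway genes called at day 5 were 1 with quantile normalization and 1 without a filter on low TPM. Genes called at day 1 were 13 as reported, 6 without a filter, 7 without the trend, 2 with the tubule covariate, 2 with only the compared groups and 3 to 218 with 1 library left out, the highest without control replicate 5. Between the days 259 were called as reported, 153 when each library had to reach a TPM of 1, 133 with the tubule covariate, 423 with only the compared groups and 150 to 437 with 1 library left out. With 1 library left out, 0 to 1 pathway genes were called at day 1, 1 to 3 at day 5 and 0 to 2 between the days, and with only the compared groups 1 was called between the days. The causes were not tested.

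Replicate numbers label different animals. The deviations of same-numbered libraries correlated between -0.056 and 0.091, so the numbers do not pair the samples. With the replicate block, *Adm* at day 5 was 1.14 (adjusted p = 0.0513), 149 genes and 2 pathway genes were called at day 1, 2 pathway genes between the days, and *Ece1* and *Agtr1a* at day 1 were -0.041 and -0.012. *Ramp3* also lost its call (adjusted p = 0.105), and the block changed no other call named here.

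Genes that did not pass the test changed sign around 0. At day 1, *Ece1* and *Ramp2* were -0.013 and -0.027 with unscaled TPM and -0.0066 and -0.022 with quantile normalization, *Ramp2* was -0.0018 with the endothelial covariate, and *Ednra* was 0.21 with the tubule covariate. Between the days, the tubule covariate gave -0.26 for *Ednra*, -0.038 for *Ece1*, -0.012 for *Ramp2* and -0.11 for *Agtr1a*. The endothelial covariate gave -0.087 for *Ece1* and -0.033 for *Agtr1a* at day 5, and -0.058 for *Edn1*, -0.098 for *Ednra*, -0.091 for *Ece1* and -0.067 for *Agtr1a* between the days. With 1 library left out, the ranges at day 1 were -0.011 to 0.12 for *Agtr1a*, -0.040 to 0.076 for *Ece1*, -0.11 to 0.022 for *Ednra* and -0.043 to 0.078 for *Ramp2*. At day 5 they were -0.22 to 0.014 for *Edn1* and -0.084 to 0.046 for *Ednra*, and between the days -0.0020 to 0.47 for *Adm* and -0.017 to 0.083 for *Ednra*.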
